A study of Homo sapiens with 27 samples.

Results

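The mitotic and G2/M genes described here are a list of 47 genes whose products carry a cell from G2 through chromosome segregation to cytokinesis. They were chosen by name, with earlier results of these data known. All 47 were found by their Ensembl identifiers among the 60619 genes of the count data. RNA-Seq was available for 9 groups of 3 libraries each, from wells of MM134 (MDA-MB-134VI) and SUM44 cells, both ER-positive human cell lines of invasive lobular carcinoma (ILC). MM134 parental cells, SUM44PE cells and SUM44F cells (SUM44PE adapted to other medium with full serum, from which the SUM44 variants were derived) had been hormone-deprived for 3 days in charcoal-stripped serum. The long-term estrogen-deprived (LTED) cells had been selected for growth without estrogen and were kept in such serum: 4 MM134 variants named A, B, D and E, and 2 SUM44 variants named A and B. Each variant is a single derivation and its libraries are wells of one culture, so p-values measure the spread between wells.

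Entry into mitosis is driven by CDK1 bound to cyclin A2 or a B-type cyclin, and most genes of this stage are transcribed late in the cell cycle. The MuvB complex, joined by MYBL2 and then FOXM1, is known to bind many of their promoters at a cell cycle homology region (CHR), often beside CCAAT boxes bound by NF-Y. Their products then build the kinetochore and spindle, hold the cell at the spindle checkpoint, and divide it. In a bulk library, fewer dividing cells and less RNA per dividing cell cannot be told apart.

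Promoter sequence was a feature the list did not use. The RefSeq promoter set (GRCh38.p14, 250 bases before to 50 bases after the start) held 41 of the 47 genes, AURKA, BIRC5, FOXM1, TPX2, TTK and UBE2C having no entry. Some genes have several promoters in the set, and a gene was counted when any of them held the word. A CHR word, TTTGAA or TTTAAA on either strand, was in 36 of the 41 (87.8%), against 27.9% of all 27305 genes of the set. CCAAT was in 34 (82.9%), against 39.7%, and both kinds of word stood in the same promoter in 28 (68.3%), against 11.2%. Genes whose words lay in different promoters (CDC25B and PLK4) were not among the 28. An E2F word, which was TTCGCGC in one form, TTCCCGC in another form and TTGGCGC in the last form, was in 11 (26.8%), against 13.1%. In the 150 bases before the start, the CHR share was 65.9% against 15.3% and the CCAAT share 80.5% against 27.8%. The words are matches of letters and were not tested as binding sites. The 200 bases before the start are shown for CCNB1, PLK1, KIF20A and TOP2A as cyclin, kinase, motor and topoisomerase promoters with both words, and for CENPE, the member that rose most in SUM44 LTED-A, which has a CHR word and no CCAAT in this stretch. Capitals mark all CHR, CCAAT and E2F words, and ATTGG and TTCAAA are words read on the other strand.
CCNB1, chr5:69166950-69167149, plus strand: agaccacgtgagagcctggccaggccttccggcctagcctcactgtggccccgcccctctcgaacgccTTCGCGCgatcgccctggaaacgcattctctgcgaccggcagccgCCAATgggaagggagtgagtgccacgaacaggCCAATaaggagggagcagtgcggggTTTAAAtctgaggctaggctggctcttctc
PLK1, chr16:23678689-23678888, plus strand: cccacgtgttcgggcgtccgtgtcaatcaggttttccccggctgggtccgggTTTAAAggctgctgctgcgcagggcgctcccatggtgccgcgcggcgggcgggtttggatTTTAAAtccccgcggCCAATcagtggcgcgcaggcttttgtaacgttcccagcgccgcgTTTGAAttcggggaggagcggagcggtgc
KIF20A, chr5:138178912-138179111, plus strand: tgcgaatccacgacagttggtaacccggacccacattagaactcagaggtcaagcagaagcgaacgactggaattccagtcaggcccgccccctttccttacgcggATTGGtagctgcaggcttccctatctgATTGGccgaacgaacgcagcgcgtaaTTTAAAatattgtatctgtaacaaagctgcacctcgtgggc
TOP2A, chr17:40417897-40418096, minus strand: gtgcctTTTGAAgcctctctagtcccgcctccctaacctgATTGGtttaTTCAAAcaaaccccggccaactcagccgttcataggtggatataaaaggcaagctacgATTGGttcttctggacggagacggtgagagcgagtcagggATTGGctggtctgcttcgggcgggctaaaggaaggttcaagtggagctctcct
CENPE, chr4:103198344-103198543, minus strand: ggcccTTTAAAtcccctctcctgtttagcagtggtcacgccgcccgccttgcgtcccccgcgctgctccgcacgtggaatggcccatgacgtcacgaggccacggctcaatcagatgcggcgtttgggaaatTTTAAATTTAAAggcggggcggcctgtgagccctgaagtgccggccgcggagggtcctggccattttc

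Total counts were 28582990 to 134881725 per library, and the lowest count of any member in a library was 525 (CDC25C), so depth did not limit these genes. In SUM44 LTED-A, the counts of replicates 2 and 3 agreed within sampling noise (chi-square per degree of freedom 0.312, against 2.35 to 58.1 in the other 26 replicate pairs) and were counted as 1 sample, leaving 2 samples of this variant. MKI67 differed between these by 0.78 on the log2 scale, and no other member differed more than 1.5-fold between samples of any group. The 2 LTED-A samples were still the least alike. Replicate 1 gave the highest chi-squares, 58.1 and 56.6 against replicates 2 and 3. The median member spread (log2 of highest over lowest sample) was 0.29, against 0.04 to 0.16 in the other groups. All groups expressed luminal epithelial markers. SUM44F replicate 1 stood apart in genes of other cell types: the summed level of 10 markers of blood, stroma and vessels was 180.1 CPM there, against 43.9 and 37.6 in the other SUM44F libraries, 26.7 to 28.1 in SUM44PE, 9.68 to 13.3 in SUM44 LTED-A and 16.2 to 17.3 in SUM44 LTED-B. The members' levels in it lay within -0.18 to 0.18 (log2) of the mean of the other SUM44F libraries.

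To ask how the levels of these genes stood in the 9 groups, counts were divided by the library total (CPM, per 1e6 counts) and put on one scale by TMM normalization. SUM44F had the lowest mean level for 42 of the 47 genes, and SUM44PE the second lowest for 32. The exceptions were MYBL2, NUF2 and CENPA, lowest in MM134 LTED-A, and AURKB and CENPF, lowest in MM134 LTED-D. MM134 parental cells were highest for 19 genes, MM134 LTED-E for 11, SUM44 LTED-B for 9, SUM44 LTED-A for 7 and MM134 LTED-D for 1 (PLK1). The summed level of the list was 7137 ± 175 CPM (SD, n = 3) in MM134 parental cells. Of its variants, LTED-A had 4866 ± 36.6, LTED-B had 5577 ± 121, LTED-D had 5352 ± 36.5 and LTED-E had 6606 ± 66.2 CPM (SD, n = 3 each). It was 2792 ± 46.0 in SUM44F and 3738 ± 103 in SUM44PE (SD, n = 3 each), and 5696 ± 465 in SUM44 LTED-A (SD, n = 2) and 5809 ± 130 in SUM44 LTED-B (SD, n = 3). On this sum MM134 parental and SUM44F cells thus lay at opposite ends, with the SUM44 variants among the MM134 variants and overlapping each other. The sum is weighted to genes with high levels. TOP2A was the highest member in MM134 cells. It was at 1490.0, 1409 and 1458 CPM in parental cells and at 909.6, 915 and 926 CPM in LTED-E. In LTED-E, 28 of the 47 genes had a mean level below that of parental cells. The sum without TOP2A is not given here.

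**Figure D1:**
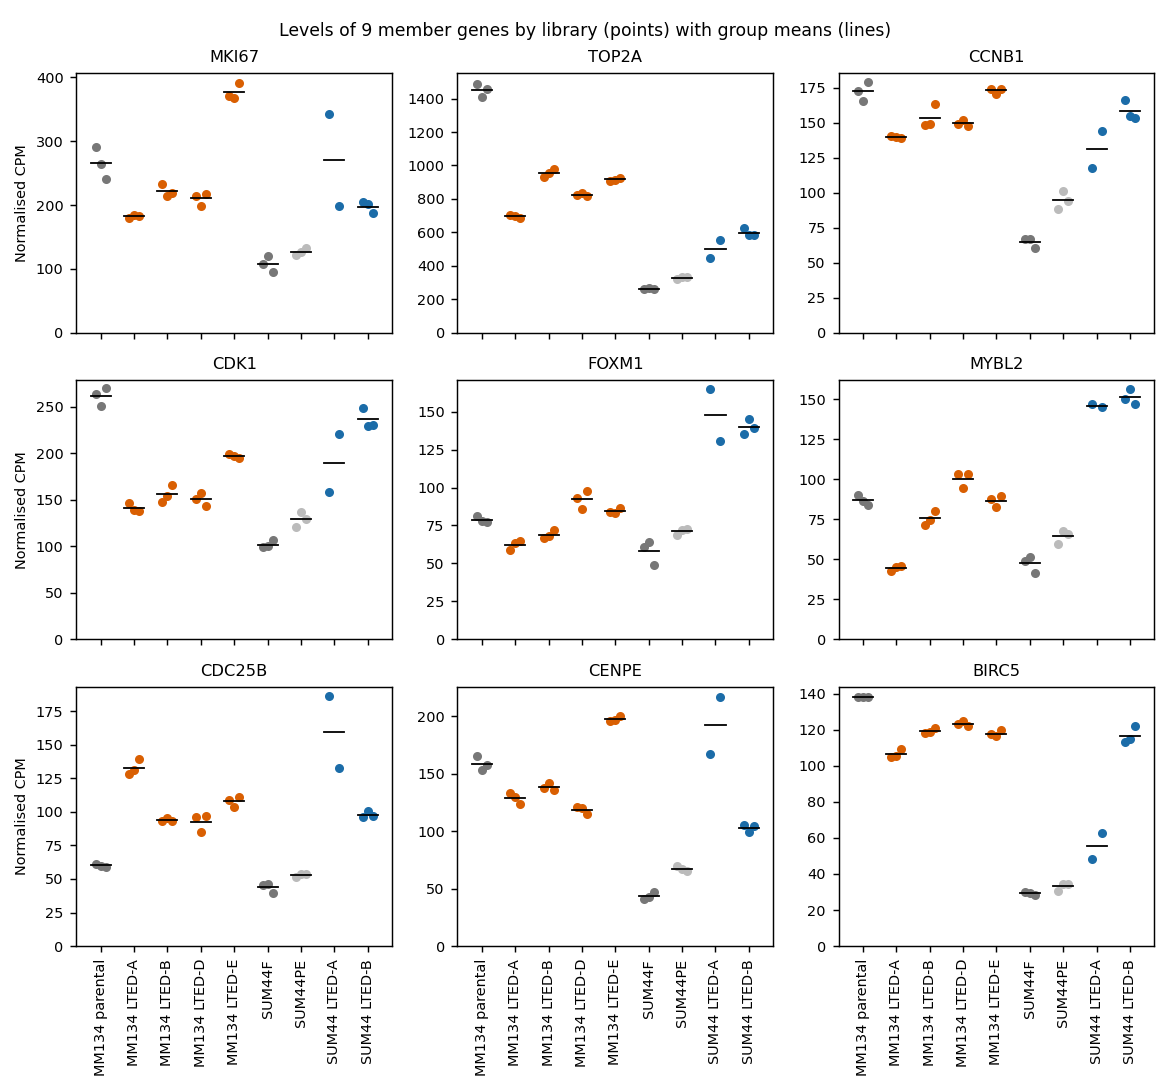
Normalised CPM of 9 member genes (vertical axes, from 0) in the 9 groups (horizontal axes). Points are libraries, with the near-identical SUM44 LTED-A libraries as 1 point, and lines are group means. SUM44F is lowest for each gene shown except MYBL2, which is lowest in MM134 LTED-A, and TOP2A falls and CDC25B rises in all 4 MM134 variants.

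MM134 parental and SUM44F cells were compared directly, since both serve as the reference for their variants. A gene was called changed when the fold change passed 1.5 at an adjusted p under 0.001 (edgeR's quasi-likelihood test, Benjamini-Hochberg adjustment over all genes tested). MM134 parental cells were higher for 41 of the 47 genes and lower for none, where 18.9% of all genes were called higher and 19.2% lower. The median log2 difference was 1.31, and the largest was TOP2A, the topoisomerase that untangles sister chromatids. TOP2A was at 1490.0, 1409 and 1458 CPM in MM134 parental cells and at 259, 266 and 263 CPM in SUM44F cells, a log2 difference of 2.45. The SUM44 and MM134 comparisons described next therefore started from unequal levels.

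In SUM44 cells, nearly the whole list rose in both variants. LTED-A had 42 of 47 genes higher than SUM44F and none lower, where 6.39% of all genes were called higher and 7.28% lower, and LTED-B had 45 higher and none lower, where 8.69% and 8.57% were. The median log2 fold change of the list was 1.05 in LTED-A and 1.18 in LTED-B, against -0.06 and -0.09 over all genes tested. Without SUM44F replicate 1, 39 and 44 genes rose, and with library totals alone, which moved the median of all genes to -0.23 and -0.29, 37 and 43 rose. The shares of all genes called in these runs are not given here. Both variants were compared with the same SUM44F libraries, all of which had a higher summed level of other-cell markers than any variant sample. Of 8 such markers tested, 1 fell in LTED-A (PECAM1, of vessel cells, -3.70) and 2 fell in LTED-B (PECAM1, -2.90, and VWF, also of vessel cells, -3.49), and none rose. The part of these markers in the rise of the list was not tested beyond leaving out replicate 1. Of the luminal markers, ESR1 (1.30 and 1.25) and GATA3 (1.08 and 0.85) rose in LTED-A and LTED-B. FOXA1 (0.67) rose in LTED-A, and KRT8 (-1.05) fell in LTED-B. The part of the luminal changes was not tested.

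Both transcription factors of the program rose. MYBL2, the partner of MuvB that starts late cell cycle transcription, was at 49.1, 51.6 and 41.7 CPM in SUM44F, at 147 and 145 CPM in LTED-A, and at 150.3, 156 and 147 CPM in LTED-B. The SUM44F libraries lay far below both variants, which overlapped. The log2 fold change was 1.62 ± 0.09 (SE) in LTED-A and 1.67 ± 0.08 in LTED-B (edgeR, adjusted p = 3.26e-07 and 1.06e-07). FOXM1, which follows MYBL2 in G2, was at 61.0, 64.1 and 48.8 CPM in SUM44F, at 165 and 130.4 CPM in LTED-A and at 135, 145 and 139 CPM in LTED-B. Its groups did not overlap with SUM44F, and it rose by 1.35 ± 0.12 and 1.27 ± 0.11 (edgeR, adjusted p = 1.26e-05 and 8.62e-06).

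All 8 genes of the CDK1 engine rose in both variants. CCNB1, the main mitotic cyclin, was at 66.7, 67.1 and 60.3 CPM in SUM44F, at 118 and 144 CPM in LTED-A and at 166, 155 and 153 CPM in LTED-B. CDK1 itself was at 99.1, 100 and 106 CPM in SUM44F, at 158 and 221 CPM in LTED-A and at 249, 229 and 231 CPM in LTED-B. Both genes were above SUM44F in every variant sample, by 1.02 (CCNB1) and 0.90 (CDK1) on the log2 scale in LTED-A and by 1.29 and 1.21 in LTED-B. In this group CDC25B, a phosphatase that removes the inhibitory phosphates of CDK1, rose most in LTED-A (1.87 ± 0.12), and CCNB2 rose most in LTED-B (1.38 ± 0.09). CCNA2, the cyclin of S phase and early mitosis, rose by 1.60 and 1.06.

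The kinases of mitotic entry and of the centrosome rose together. PLK1, which acts from centrosome maturation to cytokinesis, was at 19.6, 19.6 and 15.8 CPM in SUM44F, at 43.8 and 38.3 CPM in LTED-A and at 42.3, 46.8 and 42.6 CPM in LTED-B. AURKA, the kinase of spindle poles, was at 36.9, 36.2 and 33.7 CPM in SUM44F, at 73.0 and 91.0 CPM in LTED-A and at 76.1, 76.5 and 76.9 CPM in LTED-B. Each was higher than SUM44F in all variant samples, with log2 fold changes of 1.17 and 1.26 for PLK1 and of 1.21 and 1.10 for AURKA. PLK4, the kinase of centriole duplication, rose by 1.58 ± 0.09 in LTED-A and by 1.13 ± 0.09 in LTED-B.

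All 4 spindle checkpoint genes and all 4 genes of the chromosomal passenger complex, which corrects faulty attachments, rose in both variants. The call of TTK in LTED-B (0.66) was narrow: 5 of the 6 runs that left out 1 library ended it. BUB1, a checkpoint kinase at kinetochores, was at 45.1, 47.6 and 43.1 CPM in SUM44F, at 87.0 and 101 CPM in LTED-A and at 126, 121 and 118 CPM in LTED-B. AURKB, the kinase of the passenger complex, was at 18.3, 18.1 and 15.8 CPM in SUM44F, at 43.3 and 42.6 CPM in LTED-A and at 41.5, 42.0 and 42.5 CPM in LTED-B. Neither overlapped with SUM44F. The largest checkpoint changes were MAD2L1, the inhibitor of CDC20, in LTED-A (1.80 ± 0.12) and BUB1 in LTED-B (1.42 ± 0.08). In the passenger complex, AURKB rose most in LTED-A (1.31 ± 0.08) and BIRC5 (survivin) in LTED-B (2.0 ± 0.09), the largest change of any member there.

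The kinetochore and centromere genes were the least uniform. In LTED-A, 3 of 6 rose, while CENPA (log2 fold change 0.38), CENPF (0.41) and SPC25 (0.52) were not called. In LTED-B, 5 of 6 rose, and CENPF (0.41) was not called. CENPA, the histone H3 variant of centromeres, was at 28.4, 28.2 and 29.2 CPM in SUM44F, at 32.5 and 41.7 CPM in LTED-A and at 54.1, 55.8 and 57.7 CPM in LTED-B. LTED-B was thus clear of the other groups, with a log2 fold change of 0.96 ± 0.09 (edgeR, adjusted p = 1.03e-05). CENPE, the kinesin that moves chromosomes to the spindle equator, was at 40.8, 43.0 and 47.5 CPM in SUM44F, at 167 and 217 CPM in LTED-A and at 106, 99.0 and 105 CPM in LTED-B. Its rise in LTED-A, 2.13 ± 0.11 (edgeR, adjusted p = 1.90e-07), was the largest of the list in that variant. In LTED-B, NUF2, a subunit of the NDC80 complex, rose most in this group (1.52 ± 0.11).

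Among 8 spindle assembly genes, 6 rose in LTED-A and 8 in LTED-B. NUSAP1 (0.59) and HMMR (0.67), both microtubule-associated, were not called in LTED-A. TPX2, the activator of AURKA, rose most in LTED-A (1.10), and HMMR rose most in LTED-B (1.32). All 4 genes of anaphase and ubiquitin transfer rose in both variants, led by UBE2C, the E2 enzyme of the anaphase-promoting complex (APC/C). UBE2C was at 46.7, 46.5 and 41.6 CPM in SUM44F, at 113 and 128 CPM in LTED-A and at 125, 126 and 131 CPM in LTED-B. CDC20, the mitotic activator of the APC/C, was at 23.2, 22.6 and 18.2 CPM in SUM44F, at 52.2 and 55.9 CPM in LTED-A and at 53.2, 54.9 and 53.3 CPM in LTED-B. The variants overlapped for both genes and stood well above SUM44F, with log2 fold changes of 1.43 and 1.5 for UBE2C and of 1.35 and 1.34 for CDC20.

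All 6 midzone and cytokinesis genes rose in both variants. ECT2, which activates RhoA at the division plane, rose most in LTED-A (1.36), and KIF4A, a motor of the spindle midzone, rose most in LTED-B (1.29). KIF20A, a midzone motor that brings PLK1 to the central spindle, was at 45.9, 45.3 and 41.8 CPM in SUM44F, at 66.7 and 78.3 CPM in LTED-A and at 81.0, 79.0 and 79.2 CPM in LTED-B. These groups did not overlap with SUM44F, and KIF20A rose by 0.71 and 0.85. TOP2A was at 445 and 553 CPM in LTED-A and at 624, 584 and 587 CPM in LTED-B, a rise of 0.93 and 1.18. MKI67, the coat of mitotic chromosomes behind the Ki-67 stain, was at 107, 120.1 and 95.4 CPM in SUM44F, at 343 and 199 CPM in LTED-A and at 205, 201 and 187 CPM in LTED-B. The LTED-A samples lay far apart. MKI67 was called in LTED-A (1.33 ± 0.18, edgeR, adjusted p = 0.000226) and not in LTED-B (0.88 ± 0.17, adjusted p = 0.00157), although every LTED-B library exceeded every SUM44F library. Leaving out SUM44F replicate 3 ended the LTED-A call (edgeR, adjusted p = 0.00105).

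**Figure D2:**
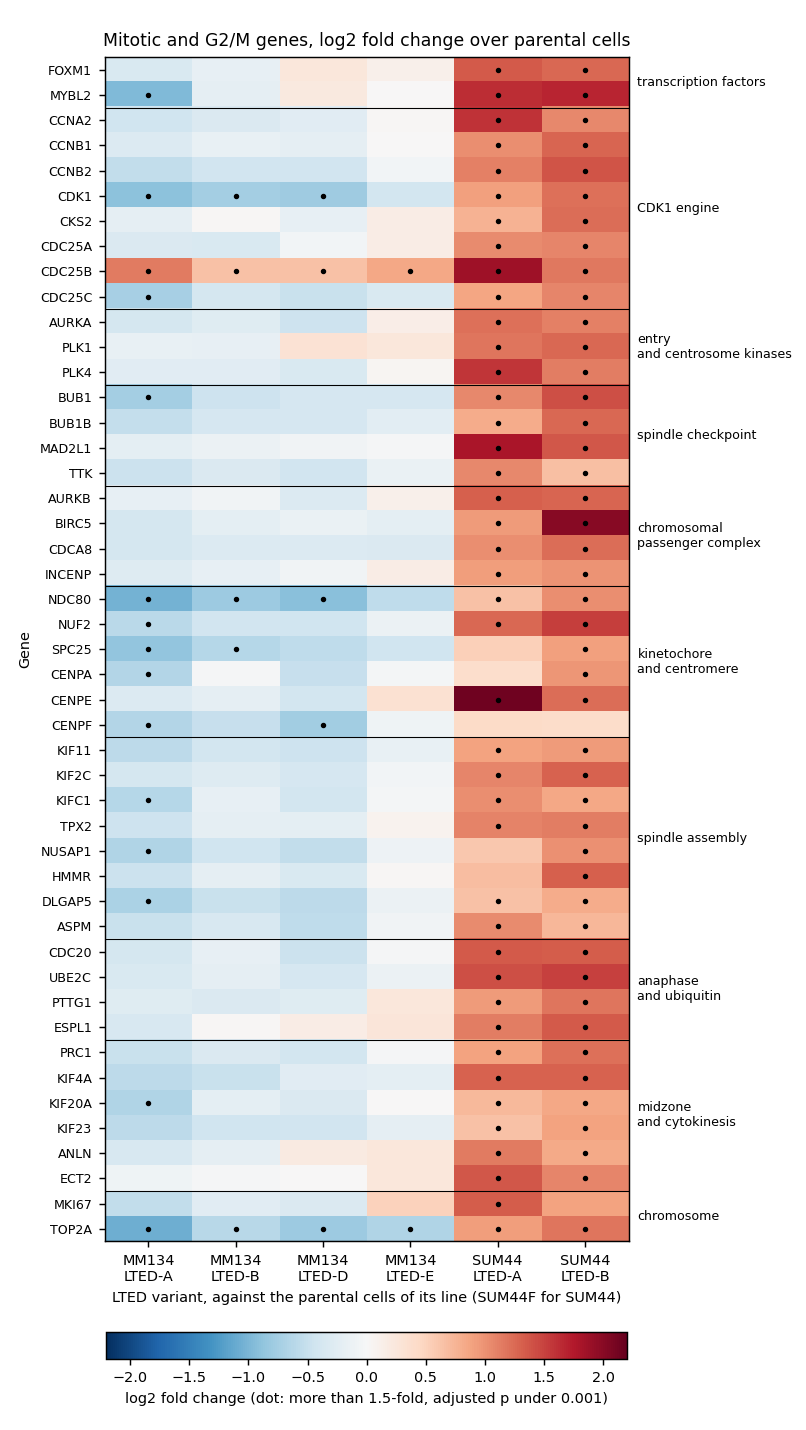
log2 fold change of the 47 genes (rows, grouped by role) in the 6 LTED variants (columns) over MM134 parental or SUM44F cells, from blue (lower) to red (higher). Dots mark called genes: 42 and 45 higher in the SUM44 variants, and 14, 4, 4 and 1 lower with 1 higher (CDC25B) in the MM134 variants, from left to right.

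In MM134 cells, far fewer genes of the list were called, and most of those were lower. LTED-A had 14 of 47 genes lower, where 9.82% of all genes were called lower, and 1 higher, where 10.5% were called higher. LTED-B had 4 lower and 1 higher, where 7.75% and 8.11% of all genes were called, and LTED-D also had 4 lower and 1 higher, where 7.95% and 9.63% were. LTED-E had 1 lower and 1 higher, where 10.3% and 8.71% were. The middle log2 fold change of the list (median) was -0.46 for LTED-A, -0.27 for LTED-B, -0.36 for LTED-D and -0.03 for LTED-E, against -0.01, 0.02, -0.03 and 0.02 over all genes. In LTED-B and LTED-D the share of members lower was near that of all genes, and in LTED-E it was below it. In all 4 variants the share of members higher was below that of all genes. The summed level of 7 luminal epithelial markers moved with these comparisons: it was 4378 to 4401 CPM in parental libraries and 6111 to 7095 CPM in the libraries of the variants. KRT8, a luminal keratin, was called higher in every variant (1.06, 0.79, 1.11 and 1.06). The sum does not stand for each marker. ESR1, the estrogen receptor gene, and GATA3 differed among the variants by 1.84 and 1.23 from lowest to highest. These ranges give no direction against parental cells. Changes over parental cells of the luminal markers other than KRT8 are not given here. The paper reports less ER protein in MM134 LTED cells than in parental cells. The part of these marker changes in the changes of the list was not tested. Scaling by library totals alone, which moved the median of all genes to -0.17, -0.15, -0.23 and -0.12, gave 26, 12, 20 and 2 lower and 1, 0, 0 and 1 higher. The shares of all genes called under this scaling are not given here, so these counts alone do not set the list apart. All 4 variants were compared with the same parental libraries.

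TOP2A was lower in each variant. Against 1490.0, 1409 and 1458 CPM in parental cells, it was at 704, 698 and 684 CPM in LTED-A, at 929, 957 and 976 CPM in LTED-B, at 821, 838 and 817 CPM in LTED-D and at 909.6, 915 and 926 CPM in LTED-E. No variant library reached the parental range, and the log2 fold changes were -1.07 ± 0.03, -0.60 ± 0.03, -0.80 ± 0.03 and -0.65 ± 0.03 (edgeR, adjusted p = 1.19e-16, 7.92e-13, 1.14e-14 and 1.69e-13). CDC25B was higher in each variant. It was at 61.4, 59.9 and 59.1 CPM in parental cells, at 128, 131 and 139 CPM in LTED-A, at 92.8, 95.2 and 93.0 CPM in LTED-B, at 95.9, 85.3 and 97.0 CPM in LTED-D and at 109, 104 and 111 CPM in LTED-E. All variant libraries lay above the parental ones, with log2 fold changes of 1.14, 0.64, 0.64 and 0.85. With library totals alone the values in LTED-B (0.47) and LTED-D (0.44) were no longer called. CDC25A (-0.32, -0.34, -0.06 and 0.16) and CDC25C (-0.73, -0.39, -0.48 and -0.33), the related phosphatases, were not called higher in any MM134 variant.

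CDK1 fell in 3 of the variants. It was at 264, 250.4 and 270.3 CPM in parental cells, at 147, 139 and 138 CPM in LTED-A, at 148, 154 and 166 CPM in LTED-B, at 151, 158 and 144 CPM in LTED-D and at 199.7, 198 and 195 CPM in LTED-E. Its log2 fold changes were -0.90, -0.74, -0.78 and -0.40, the last not called. CCNB1, its cyclin, was at 173, 166 and 179 CPM in parental cells, at 141, 140.0 and 139 CPM in LTED-A and at 174, 171 and 174 CPM in LTED-E, and was not called in any variant (-0.31, -0.16, -0.19 and 0.01). NDC80, which ties kinetochores to microtubules, fell most in the kinetochore group: from 35.4, 34.0 and 36.1 CPM in parental cells to 17.2, 17.2 and 17.4 CPM in LTED-A (-1.03), with -0.80 in LTED-B, -0.92 in LTED-D and -0.56, not called, in LTED-E.

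The kinetochore was the role with most calls in MM134 LTED-A, with 5 of 6 genes lower. CENPE (-0.31) was the one not called. CENPA was at 29.2, 28.3 and 28.0 CPM in parental cells and at 18.3, 18.4 and 18.2 CPM in LTED-A, with no overlap (-0.64). Other genes that fell in LTED-A were MYBL2 (-0.97), CDC25C (-0.73), BUB1 (-0.75), KIFC1 (-0.63), NUSAP1 (-0.67), DLGAP5 (-0.70), KIF20A (-0.66), NUF2 (-0.59), SPC25 (-0.86) and CENPF (-0.65). None of the entry kinases, the passenger complex or the anaphase genes was called in any MM134 variant, and their largest changes in LTED-A were AURKA (-0.38), BIRC5 (-0.38) and CDC20 (-0.39). SPC25 also fell in LTED-B (-0.62) and CENPF in LTED-D (-0.77).

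The 4 MM134 variants were then compared with each other. A test of any difference among them called 10 of the 47 genes, where 19.6% of all genes were called. The share of members was thus near that of all genes. MYBL2 spanned most, 1.19 on the log2 scale from its lowest to its highest variant. It was at 42.8, 45.0 and 46.0 CPM in LTED-A, at 71.7, 74.6 and 80.5 CPM in LTED-B, at 103, 94.5 and 104 CPM in LTED-D and at 87.5, 82.8 and 89.4 CPM in LTED-E, beside 90.3, 86.6 and 83.6 CPM in parental cells. LTED-A stood apart below all others, and LTED-E overlapped with the parental cells. MKI67 spanned 1.06: it was at 292, 265 and 240.4 CPM in parental cells, at 179, 184 and 183 CPM in LTED-A and at 371, 367 and 392 CPM in LTED-E. LTED-E lay above the parental range and LTED-A below it, though neither was called against parental cells (0.51 and -0.55). The others were CENPE (0.73), CENPF (0.68), KIF20A (0.66), CENPA (0.62), ANLN (0.61), AURKA (0.60), ESPL1 (0.60) and KIFC1 (0.60).

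Whether the LTED effect differed between the cell lines was tested as an interaction, in which the average effect over SUM44 variants was subtracted from the average effect over MM134 variants. All 47 genes were called lower in MM134 and none higher, where 10.2% of all genes were called lower and 10.8% higher. The differences ran from -1.89 (MYBL2, edgeR, adjusted p = 9.31e-16) to -0.70 (CDC25B, adjusted p = 1.47e-06), with a median of -1.33 against 0.06 over all genes. CDC25B, which rose in both lines, had the smallest difference. TOP2A (-1.85), CENPE (-1.84) and NUF2 (-1.80) followed MYBL2. The count stayed at 47 when any single library was left out. SUM44F was the only SUM44 reference in this test. SUM44PE, which was called higher than SUM44F for 13 of the 47 genes, was not part of it. No result with SUM44PE as the reference is given here.

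**Figure D3:**
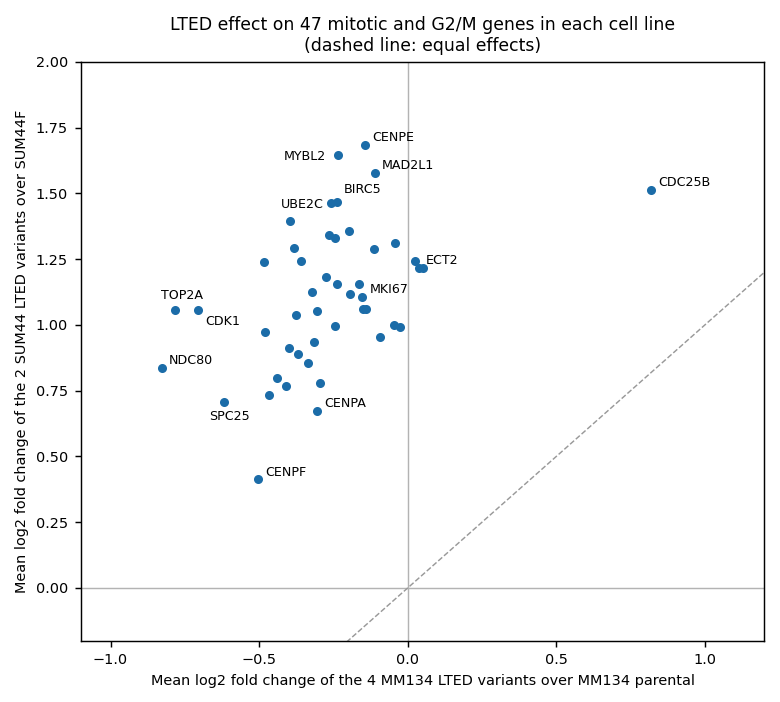
Each of the 47 genes (points) by its mean log2 fold change over the 4 MM134 variants (horizontal axis) and over the 2 SUM44 variants (vertical axis), with equal effects on the dashed line. All 47 points lie above the line, with CDC25B furthest to the right.

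The SUM44 variants differed from each other for 2 of 47 genes, where 7.42% of all genes were called. CENPE was higher in LTED-A than in LTED-B (log2 difference 0.90, edgeR, adjusted p = 0.000164, where 3.56% of all genes were), and BIRC5 was lower (-1.06, adjusted p = 3.68e-05, where 3.86% were). BIRC5 was at 29.9, 29.4 and 28.4 CPM in SUM44F, at 48.5 and 63.0 CPM in LTED-A and at 113, 115 and 122 CPM in LTED-B, so the 3 groups did not overlap. Leaving out LTED-A replicate 1 gave 4 genes, but it left LTED-A with 1 sample, which was then assumed to vary like the other groups. Leaving out any one LTED-B library ended the CENPE call (adjusted p = 0.00129 to 0.00151), leaving BIRC5.

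The genes around these members on the chromosome were shifted too. The median log2 fold change was taken over the nearest 20 genes on each side with at least 5 CPM. In SUM44 LTED-A it was 0.47 around CENPE, 0.43 around MAD2L1, 0.54 around PLK4 and 0.32 around CCNA2, all on chromosome 4, and 0.38 around AURKA on chromosome 20 and 0.31 around TTK on chromosome 6. Over all members its median was 0.09. The chromosome 4 neighbours were also higher in SUM44PE than in SUM44F, by 0.32 around CENPE, 0.32 around MAD2L1, 0.26 around PLK4 and 0.31 around CCNA2. Against SUM44PE in place of SUM44F, the same neighbours stood at 0.18, 0.05, 0.26 and 0.08 in LTED-A. In LTED-B they stood at -0.15, -0.41, -0.24 and -0.38. These shifts over parental cells thus depended on the reference. In SUM44 LTED-B it was 0.58 around BIRC5 on chromosome 17, 0.37 around TPX2 and 0.31 around INCENP. Between the variants, a comparison without parental cells, neighbours differed by 0.39 around CENPE and by -0.51 around BIRC5, in the direction of the gene itself. They also differed by 0.48 around MAD2L1, 0.36 around PLK4, 0.45 around CCNA2, 0.49 around TTK and 0.31 around KIFC1. These were the 7 members with neighbours beyond 0.3 in that comparison. With the neighbours' median subtracted, CENPE kept 1.66 of its 2.13 in LTED-A and BIRC5 kept 1.42 of its 2.0 in LTED-B. No member changed direction over SUM44F in either variant. In the comparison of the variants with each other, 8 members did. In MM134 LTED-D, neighbours were shifted by 0.55 around PLK1, 0.46 around ANLN, 0.42 around ESPL1 and 0.40 around FOXM1. The mean level of 41 members was below that of parental cells there, and these are 4 of the other 6 (PLK1 0.31, FOXM1 0.24, ANLN 0.19 and ESPL1 0.16, none called), and each had a negative value once the neighbours' median was subtracted. The part of these neighbourhood shifts in the changes of the members was not tested.

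**Figure D4:**
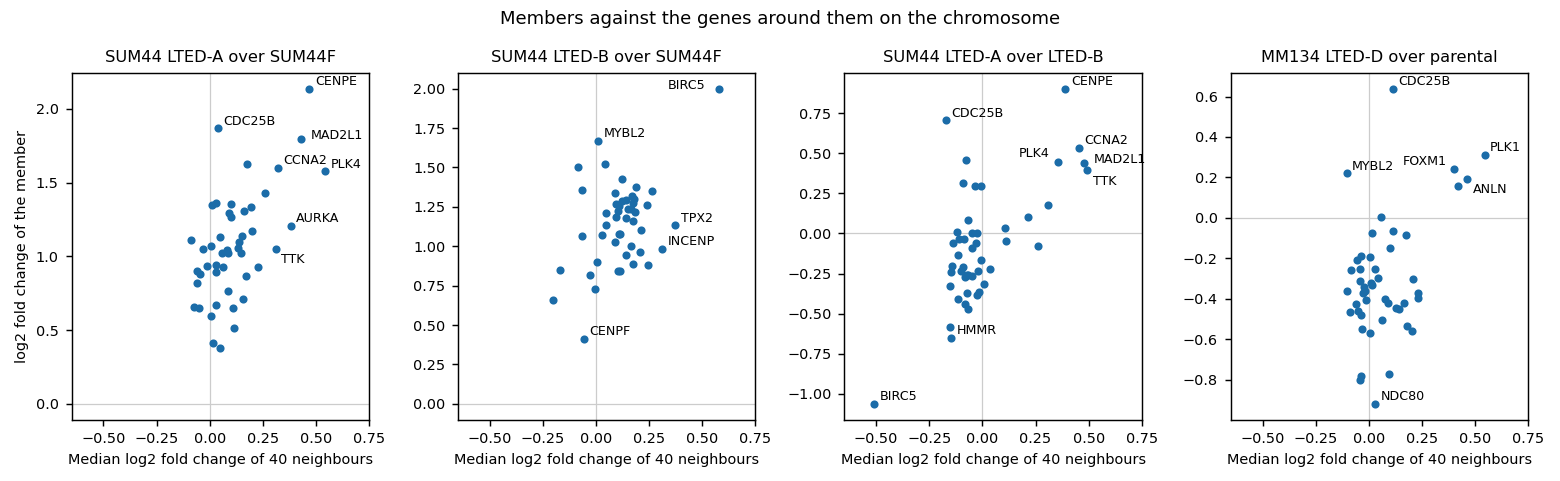
log2 fold change of each member (vertical axes) against the median log2 fold change of up to 40 neighbouring genes (horizontal axes) in 4 comparisons. CENPE, MAD2L1, PLK4 and CCNA2 on chromosome 4 lie to the right in SUM44 LTED-A, BIRC5 lies to the right in SUM44 LTED-B, and PLK1, FOXM1 and ANLN lie to the right in MM134 LTED-D.

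SUM44PE cells, the culture from which SUM44F was made, were a further reference. They were higher than SUM44F for 13 of 47 genes and lower for none, where 2.85% of all genes were called higher and 2.72% lower, with a median of 0.41. PLK4 (1.04), MAD2L1 (0.87) and CCNA2 (0.86) differed most. Against SUM44PE in place of SUM44F, 26 genes were higher in LTED-A, where 7.05% of all genes were, and 32 in LTED-B, where 10.5% were. None was lower, where 7.27% and 9.72% of all genes were. The median log2 fold changes were 0.63 and 0.72. A fit of the compared groups only called 15 in LTED-A. With library totals alone, 8 genes were higher in SUM44PE than in SUM44F, and without SUM44F replicate 1, 11 were. The shares of all genes called in these alternative runs are not given here, so their counts alone do not set the list apart.

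Other genes of the pathway were counted in lists of their own, against the same shares of all genes as above (6.39% higher and 7.28% lower in SUM44 LTED-A, 8.69% and 8.57% in LTED-B). These lists too were chosen with earlier results of these data known. All 8 condensin genes, which compact chromosomes, rose in both SUM44 variants, led by NCAPG2 (1.04) in LTED-A and NCAPH (1.52) in LTED-B. Of 21 other genes of the kinetochore and of CENPA loading, 17 rose in LTED-A and 18 in LTED-B, and none fell. SKA3, which holds kinetochores to microtubules, rose by 3.19 in LTED-A and by 1.27 in LTED-B. Of 6 other mitotic kinesins 4 rose in each variant, of 10 other checkpoint and cohesion genes 8 in each, and of 18 other genes of entry, spindle and cytokinesis 15 and 16. Of 22 S phase genes, 17 rose in LTED-A, led by CDC45 (2.22), a part of the replicative helicase, and 19 in LTED-B, led by CDT1 (1.37), which licenses origins. The APC/C, which is regulated mainly through its activators, moved less: of 15 genes none rose and CDC16 fell (-0.76) in LTED-A, and ANAPC11 (1.15) and ANAPC10 (0.60) rose in LTED-B. CDC16 was not called in LTED-B (0.09). Of 9 MuvB and DREAM subunits, 4 rose and 1 fell in LTED-A and 5 rose in LTED-B. Chromosomal neighbours were taken for the members only. Shifts of the chromosome around genes of these other lists, SKA3 and CDC16 among them, were not examined. In MM134 LTED-A, 1 condensin gene (NCAPG, -0.63), 3 of the 6 kinesins and 2 of the 21 kinetochore genes (HJURP, the chaperone of CENPA, -0.91, and CENPU, -0.87) fell, no APC/C gene was called, and 2 of the 22 S phase genes fell and 1 rose (CCNE1, the cyclin of S phase entry, 0.79). With 9.82% of all genes lower in this variant, the condensin, kinetochore and S phase counts were near the share of all genes. In MM134 LTED-E, KIF18A (0.60) and CCNE1 (1.06) were called higher and BUB3 (-0.71) lower, where 8.71% and 10.3% of all genes were. The counts of these lists in LTED-B and LTED-D are not given here.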

How the data were processed

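RNA was sequenced from 3 wells per group after stranded total RNA library preparation. The authors quantified genes with Salmon 0.6.0 on hg38, and the deposited values are estimated counts per Ensembl gene, without normalization. How reads of overlapping genes were divided depends on that estimate. Trimming is not given in the sources used here. No column lacked a sample (0).

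Counts were rounded, and replicates 2 and 3 of SUM44 LTED-A were averaged. Symbols and positions came from GENCODE release 44. Genes were filtered with filterByExpr, scaled by TMM and tested two-sided with edgeR 4.0.16 in R 4.3.3, with 1 fit for MM134 (26061 genes), 1 for SUM44F and its variants (26834), 1 adding SUM44PE (27457) and 1 of both lines (29200). The calls used the study's thresholds, a fold change over 1.5 and an adjusted p under 0.001. The study itself used DESeq2. SE is the log2 fold change over the square root of F. The fit was tested on simulated data. DESeq2 1.42.0, other scalings, filters and thresholds, thinning, a replicate block and leaving out each library were the alternatives. Tables and figures were made with Python 3.11.15, pandas 2.3.3, numpy 2.4.6 and matplotlib 3.10.9.

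The 47 members and the other lists were chosen with earlier results of these data known. Genes named in the text were 15 members set by name, the member with the largest change in each role, members that departed from most of their role, and up to 2 called genes of each other list. CDC25A and the members singled out by their chromosomal neighbours were named after their values were seen.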

Additional observations from a re-analysis of the deposited data

Results flagged for a closer look

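The LTED effect differed between the cell lines for 47 members, by the interaction test of edgeR across all genes (average MM134 effect with the average SUM44 effect subtracted, log2). All were lower in MM134, where 10.2% of all genes were called lower and 10.8% higher. SUM44F was the only SUM44 reference, and no result with SUM44PE is given here. The differences were furthest from 0 for MYBL2 (-1.89), TOP2A (-1.85), CENPE (-1.84), NUF2 (-1.80), CDK1 (-1.77), BUB1 (-1.73), UBE2C (-1.73), BIRC5 (-1.72), MAD2L1 (-1.70), KIF4A (-1.68), NDC80 (-1.67), CDC20 (-1.62), CCNB2 (-1.61), CCNA2 (-1.58), PLK4 (-1.56) and KIF2C (-1.47). They were intermediate for CDC25C (-1.47), CDCA8 (-1.46), BUB1B (-1.42), AURKB (-1.41), AURKA (-1.40), PRC1 (-1.37), FOXM1 (-1.36), SPC25 (-1.33), CCNB1 (-1.33), TPX2 (-1.32), KIF11 (-1.32), MKI67 (-1.27), ASPM (-1.26), KIFC1 (-1.26), HMMR (-1.25) and NUSAP1 (-1.25). They were nearest to 0 for ESPL1 (-1.23), PTTG1 (-1.22), DLGAP5 (-1.21), CDC25A (-1.21), TTK (-1.2), ECT2 (-1.19), KIF23 (-1.19), PLK1 (-1.17), KIF20A (-1.08), CKS2 (-1.06), INCENP (-1.06), ANLN (-1.02), CENPA (-0.99), CENPF (-0.93) and CDC25B (-0.70).

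Among the 4 MM134 variants, 10 members differed by more than 1.5-fold, with these log2 distances between the lowest and the highest variant: MYBL2 (1.19), MKI67 (1.06), CENPE (0.73), CENPF (0.68), KIF20A (0.66), CENPA (0.62), ANLN (0.61), ESPL1 (0.60), AURKA (0.60) and KIFC1 (0.60). Between the SUM44 variants, 2 members differed, CENPE (0.90 higher in LTED-A) and BIRC5 (-1.06, lower in LTED-A). Groups of 2 or 3 samples were too small for a search for single outlying libraries.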

How the results depend on the processing

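No member changed direction while called in any comparison under any alternative run, and the counts for SUM44 LTED-A and LTED-B over SUM44F, for the interaction and for MM134 parental over SUM44F stayed within 1.5 times. Single calls were less firm. In SUM44 LTED-A those of CKS2, NDC80, DLGAP5 and KIF23 held in 11, 10, 7 and 11 of 16 alternative runs. In LTED-B that of TTK held in 8 of 16. A fold change over 2 left 3, 0, 0 and 0 members in the MM134 variants A, B, D and E, 2 among the MM134 variants, 1 between the SUM44 variants, 1 in SUM44PE over SUM44F, and 10 and 8 in SUM44 LTED-A and LTED-B over SUM44PE. No minimum fold change gave 44, 38, 43 and 23 in the MM134 variants, 46 among them, and 20 in SUM44PE. Many genes outside the list differed too. Of 26061 genes tested, 14803, 13839, 14492 and 14428 had an unadjusted p under 0.05 in MM134 LTED-A, B, D and E (edgeR). The shares of all genes called under the alternative runs are not given here, so these counts alone do not set the list apart. Library totals alone gave 27, 12 and 20 in MM134 variants A, B and D, and 8 in SUM44PE. LTED-D had 8 with upper-quartile factors (8 lower, 0 higher) and 8 with a mean of at least 1 CPM. Between the SUM44 variants, DESeq2, no filter and an adjusted p under 0.05 each gave 4. A fit of the compared groups only gave 15 for SUM44 LTED-A over SUM44PE. The cause of these shifts, beyond the thresholds themselves, was not tested. Leaving out 1 library gave 1 to 4 between the SUM44 variants.

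Replicate numbers gave no clear pairing: deviations of same-numbered samples correlated at -0.39 to 0.28 in MM134 and -0.21 to 0.23 in SUM44. Those of differently numbered samples correlated at -0.42 to 0.45 and -0.27 to 0.28. In MM134 7 of 15 and in SUM44 6 of 11 samples were nearest to their own number. How many would be so without pairing was not computed. With a replicate block, 38 members were called in SUM44 LTED-A, 45 in LTED-B, 15, 5, 5 and 2 in the MM134 variants and 47 in the interaction.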
